A study of Ziziphus jujuba var. spinosa with 24 samples.

Results

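Autotetraploid sour jujube leaves taken after 48 h of drought were compared with autotetraploid leaves from the control environment. The comparison took the 6 libraries carrying those labels, 3 on each side, out of 24 in the study, and covered every gene with enough reads to test, 25829 of the 32527 listed. Sour jujube (Ziziphus jujuba var. spinosa) is a thorny fruit tree of dry ground, and its autotetraploid carries a doubled set of the same chromosomes as the diploid. The study also held autotetraploid leaves at 6 h and 12 h, and the diploid at all 4 points, with 3 libraries a group. The genotype label of both groups compared is autotetraploid, and that of the diploid is wild type.

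Both autotetraploid groups were plantlets grown from tissue culture for 30 days and then kept on rooting medium for 45 days, under 16 h of light and 8 h of dark. Drought was imposed by polyethylene glycol, a polymer that lowers the water potential of the root solution, and it was raised in daily steps to 20%. How the 48 h relate to those steps, and the hour of day at which each group was cut, are not stated in the labels. Repeats are numbered within each group, but the labels leave unsaid whether each had its own plants, and the spread that the p-values rest on may therefore be technical. Library input was an equal mass of RNA, which makes every level a share, and in a whole leaf fewer cells of a type cannot be told apart from less RNA per cell.

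When water is short, leaves commonly close their stomata, which limits the entry of carbon dioxide. Rubisco then fixes more oxygen, and the photorespiration that follows releases hydrogen peroxide in peroxisomes, where catalase removes it. Leaf growth under drought depends on cell walls that expansins loosen and on microtubules built from tubulin. Rubisco activase keeps Rubisco active by removing sugar phosphates that block it.

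Total counts ran between 35851118 and 40482306 in drought libraries and between 35560003 and 38635154 in control libraries, inside the 30750412 to 50404402 of the whole study. Drought libraries correlated with each other at 0.932 to 0.939 in log2 CPM (normalized counts scaled to a common library total), and control libraries at 0.926 to 0.937, across genes. Genes at 1 CPM or more numbered 20390, 20557 and 20450 in drought libraries, against 20760, 20917 and 21082 in control libraries. The groups did not overlap, and the exact two-sided permutation p of 0.1 was the smallest that 3 against 3 can give. At an equal depth of 35560003 counts the order held, with 25766 to 26090 genes detected under drought and 26197 to 26512 in controls.

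Rubisco activase transcripts were among the most abundant in both groups, as in a leaf. By FPKM (a level corrected for gene length and library total), the gene RCA2 ranked second among all genes in all 3 drought libraries, and first or second in the control libraries. RCA1 ranked 9 to 12 under drought and 19 to 25 in controls. The floral meristem genes were nearly or wholly without reads. LFY (LEAFY, a floral identity factor) had 0 counts in each of the 3 drought libraries, which allows up to 3 counts each, against 5, 4 and 8 counts in the controls, too few to test, and AP1 had 2 counts in the whole study.

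At 48 h of drought 3490 genes had changed, which is 13.5% of those tested (edgeR quasi-likelihood test, Benjamini-Hochberg adjusted p below 0.05). Genes that rose numbered 1570 (6.08%) and genes that fell numbered 1920 (7.43%). The falls were the larger changes: 1051 genes (4.07%) fell at least 2-fold, whereas 371 (1.44%) rose at least 2-fold. Most rises were small, with 824 of the 1570 under 1.5-fold, against 392 of the 1920 falls. The 3 drought libraries lay wholly above the 3 controls for 1527 of the genes that rose (97.3%; 16.5% of all genes tested) and wholly below them for 1844 of those that fell (96.0%; 16.6% of all). Scaled by library totals alone, the split was 1109 rises to 2178 falls, so 33.7% of calls were rises, against 45.0% with the normalization used. The balance turned to rises without drought library 2 (1555 up, 1417 down; 52.3%) and without control library 3 (1611 up, 1541 down; 51.1%), and with DESeq2 rises were 48.5%.

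**Figure D1:**
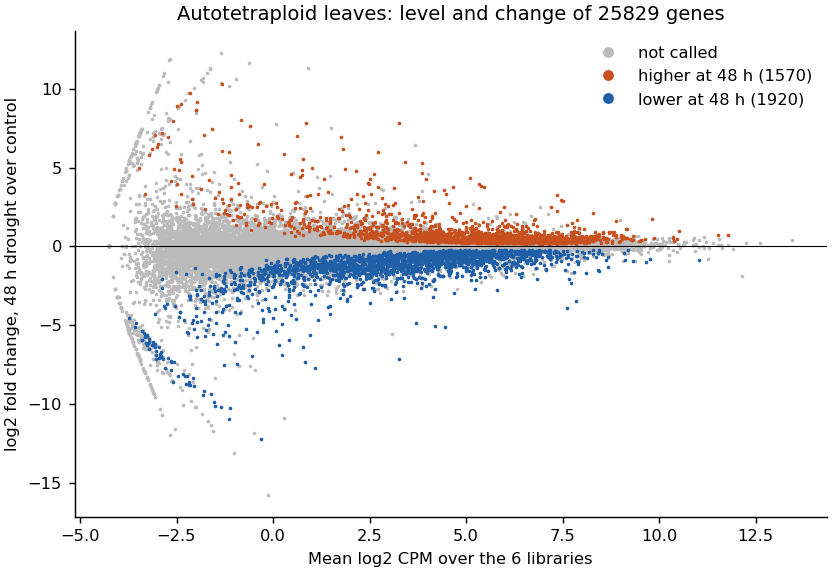
Each point is 1 gene, with its mean log2 CPM over the 6 libraries on the horizontal axis and its log2 fold change, 48 h drought over control, on the vertical axis. The 1570 genes that rose lie mostly at high levels with small changes, and the 1920 that fell spread further from 0 and towards low levels.

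Direction went with level. Genes were cut into 4 equal classes by mean level over all 24 libraries. In the highest class, 36.6 CPM and above, 849 rose and 415 fell. In the second lowest class, between 2.11 and 10.6 CPM, 223 rose and 645 fell, and in the lowest class 101 rose and 334 fell. The median log2 fold change was 0.08 in the highest class and -0.21 in the lowest. The drought libraries also held fewer detected genes, as given above, and the part of that in this pattern was not tested.

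How many genes passed the test depended on single libraries. Without control library 1 the count was 1773 (857 up, 916 down), and without drought library 1 it was 1967 (979 up, 988 down). Control library 1 was the highest of the 3 controls for 66.2% of the genes that fell, against 36.5% of all genes tested. Drought library 1 was the highest drought library for 49.8% of those that rose, against 34.6% of all. With the 6 libraries fitted on their own, 405 genes rose and 476 fell.

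Of 20 genes with an established name in the reference table, 18 could be tested: 2 rose, 3 fell and 13 did not pass. Those shares, 11.1% and 16.7%, rest on very few genes beside the 6.08% and 7.43% of all genes. The median log2 fold change of the 18 was -0.05, against 0.0 over all genes.

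**Figure D2:**
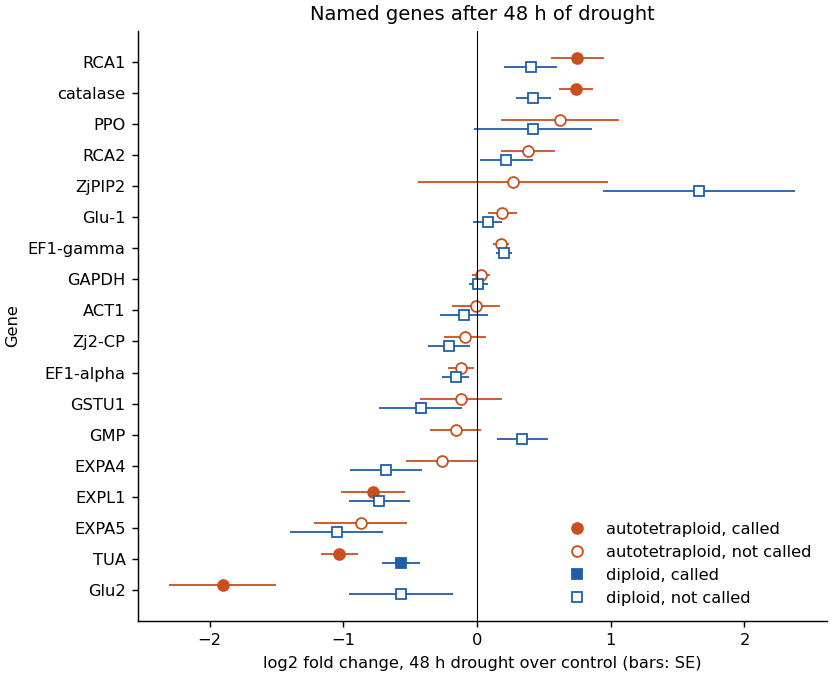
The log2 fold change at 48 h, drought over control, is plotted for the 18 named genes, with bars for the standard error; circles are the autotetraploid and squares the diploid, filled where the adjusted p was below 0.05. RCA1 and catalase lie at 0.75 and 0.74 in the autotetraploid, and TUA and Glu2 at -1.03 and -1.90.

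Of the named genes of carbon fixation and peroxide removal, catalase and RCA1 rose and RCA2 did not pass. Catalase had 4080, 3510 and 3760 CPM under drought, against 2220, 2230 and 2330 CPM in controls. Every drought library stood above every control, and the mean was 1.67-fold higher (log2 fold change 0.74 ± 0.13 SE; edgeR adjusted p = 0.0015). By length-corrected level it ranked 11 to 16 among all genes under drought, against 28 to 31 in controls. RCA1 had 4900, 4040 and 4700 CPM under drought, against 2500, 2570 and 3050 CPM in controls, again without overlap (0.75 ± 0.20; edgeR adjusted p = 0.021). That call was lost without drought library 1, control library 1 or control library 2, where the adjusted p was 0.063 to 0.073.

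The other activase gene, RCA2, had 13800, 11700 and 12900 CPM under drought and 9640, 9670 and 10200 CPM in controls. The groups did not overlap, but the difference did not pass (0.38 ± 0.20; edgeR adjusted p = 0.23). GAPDH, glyceraldehyde-3-phosphate dehydrogenase and a common normalization gene, had 2170, 2370 and 2300 CPM under drought and 2230, 2180 and 2280 CPM in controls (0.03 ± 0.07; edgeR adjusted p = 0.85).

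Of the named genes of the cytoskeleton and the cell wall, TUA and EXPL1 fell, and ACT1, EXPA4 and EXPA5 did not pass. TUA, an alpha-tubulin, had 549, 632 and 525 CPM under drought, against 1330, 1090 and 1060 CPM in controls. Every drought library was below every control library, and the mean was 2.04-fold lower (-1.03 ± 0.14; edgeR adjusted p = 0.00045). Its rank by length-corrected level was 183 to 247 under drought, against 54 to 82 in controls. ACT1, an actin, did not pass, at 196, 188 and 185 CPM under drought and 180, 192 and 200 CPM in controls (-0.01 ± 0.18; edgeR adjusted p = 0.99).

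The expansin-like gene EXPL1 had 4.95, 8.07 and 8.49 CPM under drought, against 14.1, 9.97 and 12.8 CPM in controls. It fell without overlap (-0.78 ± 0.24; edgeR adjusted p = 0.036), but the call ended in 7 of 14 alternative settings, including the removal of either drought library 1 or 2 or of control library 1 or 3, with adjusted p of 0.052 to 0.17 in those 4. EXPA5, an alpha-expansin, had 152, 163 and 297 CPM under drought and 532, 264 and 323 CPM in controls. Drought library 3 overlapped the controls, and the difference did not pass (-0.87 ± 0.35; edgeR adjusted p = 0.10); without that library it did (-1.22; adjusted p = 0.045). EXPA4, another alpha-expansin, was at 249, 365 and 428 CPM under drought and 451, 337 and 464 CPM in controls (-0.26 ± 0.27; edgeR adjusted p = 0.59).

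Glu2 showed the largest change among the named genes. It had 10.6, 20.7 and 15.7 CPM under drought, against 48.8, 53.2 and 72.8 CPM in controls, a mean 3.73-fold lower with no overlap (-1.90 ± 0.40; edgeR adjusted p = 0.0052). Glu-1 did not pass, at 68.3, 79.7 and 80.5 CPM under drought and 61.8, 74.4 and 63.6 CPM in controls (0.19 ± 0.11; edgeR adjusted p = 0.27). The calls for Glu2, TUA and catalase held under all 14 alternative settings.

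Among the remaining named genes, the aquaporin ZjPIP2, a plasma membrane water channel, varied most between libraries. It had 224, 232 and 783 CPM under drought and 709, 110 and 207 CPM in controls, so the groups overlapped widely (0.27 ± 0.71; edgeR adjusted p = 0.86). PPO, a polyphenol oxidase, had 59.0, 62.3 and 84.1 CPM under drought and 31.9, 50.7 and 51.2 CPM in controls, apart but not passing (0.62 ± 0.44; edgeR adjusted p = 0.39). GSTU1 (a tau-class glutathione transferase), GMP (GDP-mannose pyrophosphorylase), Zj2-CP (a 2-Cys peroxiredoxin) and EF1-alpha (a translation elongation factor) had log2 fold changes between -0.16 and -0.09 and adjusted p of 0.49 to 0.86. EF1-gamma, another elongation factor subunit, had 582, 540 and 492 CPM under drought and 483, 493 and 445 CPM in controls (0.18 ± 0.06; edgeR adjusted p = 0.065), and passed under DESeq2 (adjusted p = 0.0092), with DESeq2 size factors in edgeR (0.046) and without drought library 3 (0.017).

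Values at 6 h and 12 h use the same control libraries as those at 48 h, so they are set side by side only. RCA1 was at -1.04, -4.13 and 0.75 on the log2 scale against the controls at 6, 12 and 48 h. RCA2 was at 0.32, -2.24 and 0.38, and catalase at 0.05, -0.81 and 0.74. For TUA the values were -0.78, -0.79 and -1.03. GAPDH, level with its controls at 48 h, was at -0.55 and -1.05 at 6 h and 12 h. EXPA5 was at -2.18, -1.94 and -0.87. Of these 6 h and 12 h values, all passed except RCA2 and catalase at 6 h (edgeR adjusted p = 0.29 and 0.83). The diploid was low at 12 h as well. Its mean there was 202 CPM for RCA1, against 3110 CPM in diploid controls. Catalase was at 1470 against 2640 CPM, and GAPDH at 1100 against 2180 CPM. These diploid differences were not tested, and without the hour of cutting, time of day and drought time cannot be told apart.

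**Figure D3:**
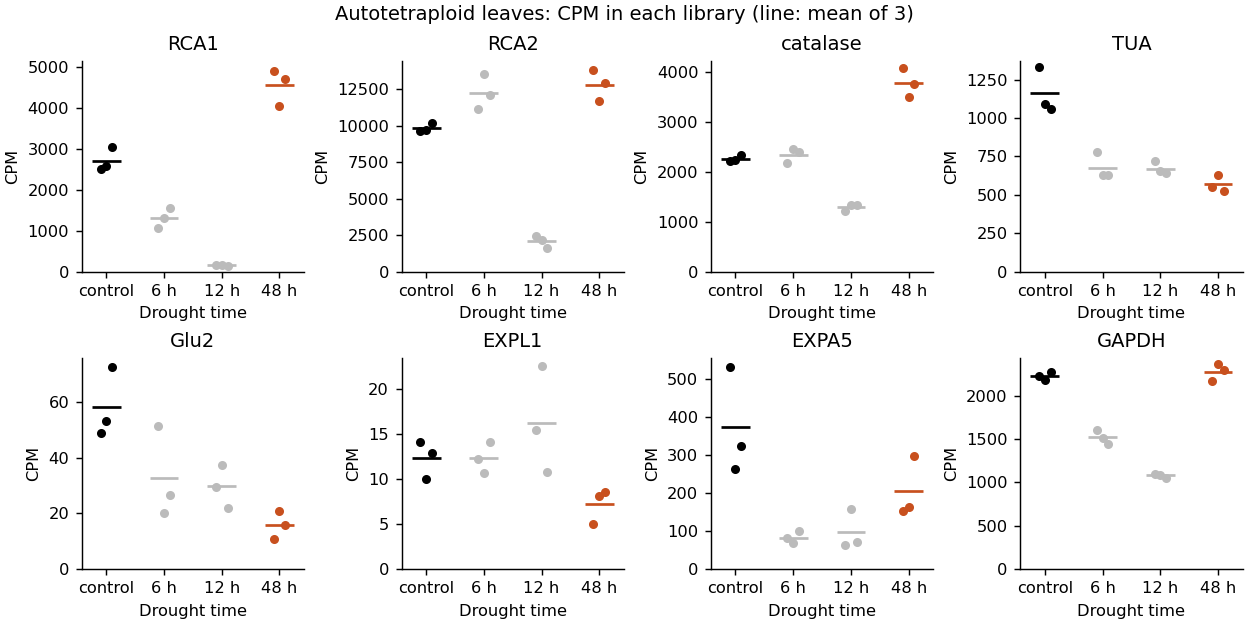
CPM of 8 named genes in every autotetraploid library is shown by time (3 points per group, line at the mean), with controls at the left. RCA1 is near 2500 to 3050 CPM in controls, at 128 to 174 CPM at 12 h and at 4040 to 4900 CPM at 48 h, while TUA stays below its controls at all 3 times.

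By absolute level, the 4 largest gains among genes that passed, with groups apart, were in RCA1, catalase and 2 genes without an established name. LOC107432380 had 2080, 1470 and 1620 CPM under drought, against 325, 464 and 739 CPM in controls, with no overlap and a mean 3.39-fold higher (1.76 ± 0.33; edgeR adjusted p = 0.0024). Ziziphus_jujuba_newGene_1219, a model absent from the reference table, had 1590, 2270 and 2360 CPM under drought and 1020, 1320 and 889 CPM in controls (0.95 ± 0.30; edgeR adjusted p = 0.043). Its call was lost without drought library 2 or 3 or control library 1 or 3 (adjusted p 0.086 to 0.12).

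The largest losses in level, by the same rule, were in LOC107420772, Ziziphus_jujuba_newGene_3725, TUA and LOC107433480. LOC107420772 had 1340, 1820 and 1570 CPM under drought, against 3210, 2560 and 2740 CPM in controls (-0.85 ± 0.21; edgeR adjusted p = 0.012), and lost its call without drought library 1 or control library 1 (0.067 and 0.065). Ziziphus_jujuba_newGene_3725 had 49.5, 22.0 and 96.1 CPM under drought, against 797, 602 and 1140 CPM in controls, a mean 15.2-fold lower (-3.92 ± 0.93; edgeR adjusted p = 0.010). Both fell with no overlap. LOC107433480 had 531, 904 and 560 CPM under drought, against 1360, 1090 and 1090 CPM in controls (-0.83 ± 0.19; edgeR adjusted p = 0.0073), and lost its call without drought library 1 (0.052).

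Among genes that passed with a mean of at least 5 CPM and with groups apart, the 6 largest rises by ratio had control levels of at most 0.928 CPM, save for 1 control library of LOC107416254. LOC107418400 had 54.3, 173 and 239 CPM under drought, against 0.918, 0.425 and 0.716 CPM in controls (7.81 ± 1.42; edgeR adjusted p = 0.0021). LOC107421878 had 22.3, 12.9 and 63.5 CPM under drought, against 0.675, 0.198 and 0.477 CPM in controls (6.18 ± 0.90; edgeR adjusted p = 0.00063). In both, the lowest drought library was many times the highest control.

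LOC107431377 had 13.6, 46.6 and 23.3 CPM under drought, against 0.0, 0.085 and 0.265 CPM in controls (7.85; edgeR adjusted p = 0.0035), and LOC107431281 had 9.37, 35.4 and 19.4 CPM, against 0.0, 0.0283 and 0.451 CPM in controls (7.02; 0.0017). LOC107416242 had 17.1, 95.7 and 43.6 CPM under drought, against 0.0, 0.34 and 0.928 CPM in controls (6.93; 0.0064). LOC107416254 had 34.9, 176 and 119 CPM under drought, against 0.0, 0.368 and 4.91 CPM in controls (5.96; 0.020), and lost its call without control library 1 or 2 (0.068 and 0.073). In these 4 genes drought library 1 was the lowest of the drought libraries and drought library 2 the highest, and control library 1 had no reads. With limma-voom, 4 of the 6 missed the threshold, at adjusted p of 0.075 to 0.14.

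By the same rule, the 6 largest falls by ratio were in genes at 1.21 CPM or less in every drought library. LOC107429331 had 0.106, 0.216 and 0.0893 CPM under drought, against 11.3, 24.6 and 54.7 CPM in controls (-7.74 ± 1.07; edgeR adjusted p = 0.00048). LOC107417442 had 0.926, 1.21 and 0.774 CPM under drought, against 35.9, 71.2 and 301 CPM in controls (-7.12 ± 1.43; edgeR adjusted p = 0.0040). Control levels of each of these genes differed several-fold between libraries.

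LOC107410921 had 0.0794, 0.0 and 0.506 CPM under drought, against 5.56, 22.0 and 67.4 CPM in controls (-7.37; edgeR adjusted p = 0.00083). LOC107434713 had 0.0794, 0.081 and 0.208 CPM under drought, against 3.54, 4.45 and 37.1 CPM in controls (-6.92; 0.0070). LOC107424605 had 0.291, 0.162 and 0.0298 CPM under drought, against 2.05, 4.98 and 31.1 CPM in controls (-6.25; 0.019), and its call was lost without control library 3 (0.073) or any 1 drought library (0.057 to 0.070). All 5 were highest in control library 3.

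LOC107405185 had no reads in any drought library, against 9.07, 30.9 and 6.66 CPM in controls. It was also without reads in diploid control library 3, against 10.0 and 31.4 CPM in diploid control libraries 1 and 2. Diploid library 1 at 6 h and library 2 at 12 h had none either, against 13.2 CPM in library 3 at 6 h and 14.1 CPM in library 1 at 12 h. Diploid drought libraries at 48 h had 0.627, 1.37 and 1.06 CPM. With 3 counts per library as the floor, 0.0893 CPM at most, the autotetraploid mean of LOC107405185 was at least 174-fold lower under drought (edgeR adjusted p = 0.047). The call ended in 9 of 14 alternative settings, among them the removal of any 1 of the 6 libraries (0.056 to 0.13). With limma-voom none of these 6 genes passed (adjusted p 0.21 to 0.55).

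Seen as sets, 87 genes (0.337%) rose at least 8-fold and 172 (0.666%) fell at least 8-fold. Their levels were low: the median gene of the 172 had a mean of 0.0542 CPM under drought and 1.53 CPM in controls, and that of the 87 had 7.55 CPM under drought and 0.195 CPM in controls, against 9.9 and 10.4 CPM over all genes. No drought library had a read for 58 of the 172 (322 of all genes tested), and no control had one for 16 of the 87 (215 of all). Since the sets were chosen on these 6 libraries, their levels there are a description. Median levels of the 172 were -3.25, -3.95 and -4.25 log2 CPM in drought libraries, against -0.38, 0.10 and 1.53 log2 CPM in controls, and autotetraploid library 3 at 12 h stood at -2.02. Control library 3 was the highest control for 79.1% of the 172, against 34.4% of all genes tested. Without it, 95 genes fell that far. Of the 87, the drought libraries had medians of 1.88, 2.97 and 3.45 log2 CPM, against -2.91, -2.86 and -1.54 log2 CPM in controls. Without control library 1, 54 rose that far.

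**Figure D4:**
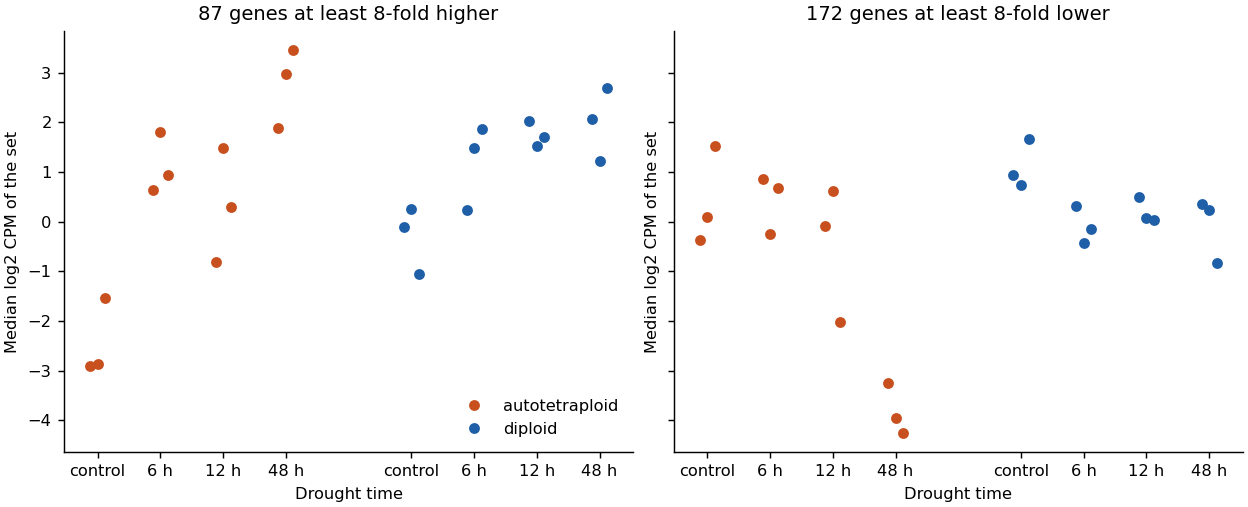
The median log2 CPM of the 87 genes at least 8-fold higher (left) and the 172 at least 8-fold lower (right) is shown for each of the 24 libraries, with 3 points per group in order of library number. In the right panel the 3 autotetraploid libraries at 48 h lie at -3.25 to -4.25, and diploid libraries at 48 h at 0.36 to -0.84.

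The diploid leaves at 48 h and their controls share no library with the autotetraploid ones, so they give a separate measurement of these genes. Of the 1570 genes that rose, 1508 (96.1%) also had a positive fold change in the diploid, against 50.7% of all genes tested. Of the 1920 that fell, 1822 (94.9%) had a negative one, against 49.1% of all. Sizes were smaller in the diploid: its median log2 fold change was 0.31 for the genes that rose, against 0.56 in the autotetraploid, and -0.51 for those that fell, against -1.08. A smaller median in the diploid follows in part from having chosen the genes on their autotetraploid values. The diploid comparison called 520 genes (2.01%) in all, among them 205 of the 1570 (13.1%) and 189 of the 1920 (9.84%).

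**Figure D5:**
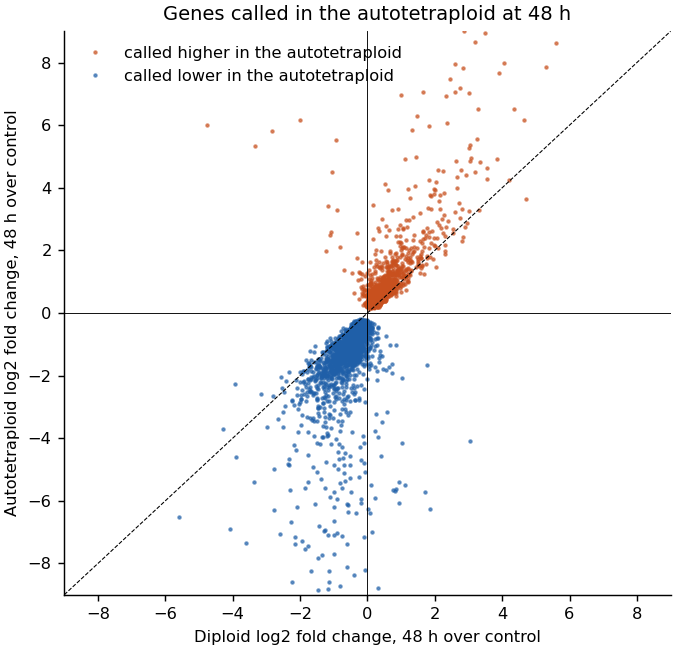
Each point is a gene called in the autotetraploid at 48 h, with its diploid log2 fold change on the horizontal axis and its autotetraploid one on the vertical axis; the dashed line marks equal change, and 13 genes lie outside the axes. Most points share a sign in both ploidies and lie further from 0 on the autotetraploid axis, the axis on which they were chosen.

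Whether the 48 h response differed between the ploidies was tested directly, as the autotetraploid change minus the diploid one. No gene passed (0.0%; smallest edgeR adjusted p 0.25); 1626 genes (6.3%) had an unadjusted p below 0.05. DESeq2 called 162 genes and limma-voom called 0. TUA was at -1.03 in the autotetraploid and -0.57 in the diploid, where it also passed (edgeR adjusted p = 0.040; difference 0.76). Catalase was at 0.74 and 0.42, with the diploid value at adjusted p = 0.092 (difference 0.82). Glu2 was at -1.90 and -0.57, a difference of -1.33 ± 0.55 (edgeR adjusted p = 0.75). ZjPIP2 was at 0.27 and 1.66, a difference of -1.39 ± 1.00 (edgeR adjusted p = 0.88).

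Of the 172 genes that fell at least 8-fold, 148 (86.0%) also had a negative fold change in the diploid, against 49.1% of all genes. There 5 of them (2.91%) passed, near the 2.01% of all genes tested. Of the 87 that rose at least 8-fold, 78 (89.7%) had a positive fold change there, against 50.7% of all, and 10 (11.5%) passed. Diploid log2 fold changes of the 6 falls named above were -3.76, -2.14, -1.35, -1.25, -0.76 and 0.03, and none passed, nor did any of their differences from the autotetraploid. LOC107429331, near 0 in autotetraploid leaves under drought, had 17.2, 41.5 and 5.06 CPM in diploid leaves under drought, against 36.0, 47.2 and 79.4 CPM in diploid controls (difference -6.39; edgeR adjusted p = 0.25). LOC107417442 had 56.6, 484 and 33.2 CPM in diploid leaves under drought, against 150, 149 and 676 CPM in diploid controls (difference -6.36; edgeR adjusted p = 0.49). Of the 6 rises named above, all had a positive fold change in the diploid, at 1.83 to 5.31, and 5 did not pass there (edgeR adjusted p 0.053 to 0.49). The other, LOC107421878, passed, with 23.6, 13.7 and 44.0 CPM under drought, against 1.32, 1.47 and 0.43 CPM in diploid controls (4.66; edgeR adjusted p = 0.013). LOC107432380, the unnamed gene with the large gain in level, passed in the diploid, with 2120, 1270 and 1270 CPM under drought, against 536, 459 and 545 CPM in diploid controls (1.60; edgeR adjusted p = 0.019).

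Calls were also counted by gene class and by position. Protein-coding genes of the reference table made up 17149 of the genes tested, of which 1286 rose (7.5%) and 1546 fell (9.02%). Models without a name made up 2760, of which 63 rose (2.28%) and 101 fell (3.66%). Their median level was lower, at 1.47 CPM against 18.7 CPM. LOC identifiers absent from the reference table made up 5742, of which 219 rose (3.81%) and 259 fell (4.51%). Their median level was 4.86 CPM. In the gene order of assembly ASM3175591v1, the next neighbour had risen too for 132 of 1288 genes that rose (10.2%, against 7.44% of the genes with a position). It had fallen too for 194 of 1560 that fell (12.4%, against 9.01%). The longest run held 5 neighbours that fell, LOC107432449 to LOC107432441, at -0.32 to -1.24 on the log2 scale.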

How the data were processed

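Leaf RNA was measured by RNA-seq in 24 libraries, 3 in each of 8 groups. HISAT2 and StringTie were used, per the submitters' processing notes; genome build, annotation, strand use and tool versions are not given in the sources used here. Whole-number counts per gene were deposited without normalization, per the file headers. The authors also deposited FPKM per group, a unit read from the column names and values; FPKM served only for ranks and levels between genes.

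All 24 libraries entered 1 edgeR 4.0.16 model (R 4.3.3) with a mean per group, 16 residual degrees of freedom, TMM scaling and filterByExpr, leaving 25829 of 32527 genes; of these 32527, 3073 had no count. Contrasts were autotetraploid 48 h drought minus control, and that minus the diploid contrast. Genes passed at a Benjamini-Hochberg adjusted p below 0.05 over all genes tested. Standard errors were approximated as the absolute log2 fold change divided by the square root of the quasi-likelihood F statistic. The code was tested on simulated data. DESeq2 1.42.0 and limma 3.58.1 (voom) were alternatives, as were other scaling, no filter, a replicate block, fewer libraries and leaving out each library.

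Of 29293 LOC identifiers 19767 matched the reference table, which gave 20 established names. Roles given for these genes were read from the names alone. Named were those 20; the 6 largest fold changes each way among genes that passed with at least 5 CPM on average, groups apart and no library 50 times another of its group where that one reached 5 CPM; and the 4 largest differences in CPM each way. The third part of the rule, genes called between ploidies, named none. Genes and lists were chosen with earlier results of these data known. Lists by gene function, promoters and protein sequences were not analysed here, since the sources used paired no description or sequence with the identifiers. Gene length was known for 67.2% of the genes tested, under 80%, so a length check is void. Replicates were not duplicates, with chi-square values per gene of 51.7 to 78.9 between libraries of a group. CPM use TMM-scaled totals, and log2 CPM a prior count of 2.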

Additional observations from a re-analysis of the deposited data

How the results depend on the processing

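The 3490 calls became 5006 with DESeq2 (2429 up, 2577 down) and 881 with the 6 libraries fitted on their own (779 shared). They became 1773 to 3937 when 1 of the 6, or the autotetraploid 12 h library 3, was left out. Of the counts with 1 library left out, the lowest was without control library 1 and the highest without the 12 h library. Calls of at least 2-fold, 1422, became 1991 with DESeq2 and 462 with the 6 libraries. They became 786 to 1553 with 1 left out, and 945 without drought library 1. Falls of at least 8-fold, 172, became 285 with DESeq2, 66 with limma-voom (28 shared), 33 with the 6 libraries, and 95 to 186 with 1 left out. Rises of at least 8-fold, 87, became 156 with DESeq2, 35 with the 6 libraries, and 54 to 129 with 1 left out. The count of ploidy differences, 0, became 162 with DESeq2, 1 with only the 12 libraries compared, and 0 to 5 with 1 left out, highest without control library 2. Fewer libraries leave fewer degrees of freedom, but the cause of these shifts was not tested.

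None of the 22 called genes named in the text changed direction under the alternatives run. The excess of falls over rises turned without drought library 2 or control library 3. Library numbers did not pair the groups (same-number correlations of deviations 0.00819, -0.0265 and -0.0398). With the replicate block the counts were 3209 calls, 1323 of at least 2-fold, 157 falls and 78 rises of at least 8-fold and 0 ploidy differences, and EXPL1 (adjusted p = 0.051) and LOC107405185 (0.072) lost their calls. Of the 22 called genes, 11 lost their call under limma-voom and 7 with the 6 libraries. At these depths, genes near 0 CPM rest on a handful of reads.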
